A study of Mus musculus with 5 samples.

Results

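Keratins are the intermediate filament proteins of epithelial cells. A filament is built from pairs of an acidic type I and a basic type II keratin, and in the mouse the genes of each type lie side by side in a cluster, with type I on chromosome 11 and type II on chromosome 15. Which pair a cell makes marks its state. Krt5 and Krt14 are made in the dividing basal layer of the epidermis, Krt1 and Krt10 in the differentiating layers above it, Krt6a, Krt6b, Krt16 and Krt17 at wound edges, Krt8 and Krt18 in simple and embryonic epithelia, and a large set of others in the hair shaft and its root sheaths. The keratin genes examined here were the protein-coding genes of the GENCODE M1 annotation of mm9 whose symbol is Krt followed directly by a digit. There were 51 of them among 22380 protein-coding genes, 27 on chromosome 11 and 24 on chromosome 15. Krt18, a type I gene, lies at the edge of the type II cluster, so that 28 genes were of type I and 23 of type II. A peak was given to a gene when its centre lay in the gene body or within 10 kb of it, or when the nearest protein-coding transcription start was the gene's own.

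Chromatin immunoprecipitation and sequencing was used to map where SOX11 and SOX4, related HMG-box transcription factors, sit on the genome of mouse keratinocytes. The cells came from newborn Krt14-Cre;Sox11fl/fl;Sox4fl/fl mice (dcKO), in which Krt14-driven Cre deletes both genes in Krt14-expressing epithelial cells, and all libraries shared this deletion. A doxycycline-inducible lentivirus put back Sox11 or Sox4 carrying 3 FLAG copies, doxycycline was given for 24 h, and the chromatin was pulled down with an anti-FLAG antibody in 2 replicates per factor. A single control library, called input in its title and IgG in its antibody field, had no peak list. The sites are therefore those of tagged, induced factors in cultured cells without the endogenous proteins, and the peak lists cannot show which keratins these cells expressed.

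Each factor had 1 list for both replicates, with 21270 SOX11 peaks of 258 bp and 2669 SOX4 peaks of 340 bp. The lists hold positions alone, with no height, score or read depth, so that no spread between replicates can be given and no test was made. Shares are set beside those of all genes or all peaks, and the 95% Wilson intervals cover counting error only. Peaks are named by their line number in the list (#15 is line 15). What the order of the lines means is not given in the sources used here.

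SOX11 peaks were given to 25 of the 51 keratin genes, 49.0% with an interval of 35.9% to 62.3%, beside 57.0% of all protein-coding genes. SOX4 peaks were given to 10 keratin genes, 19.6% with an interval of 11% to 32.5%, beside 13.0% of all genes. All 10 also had a SOX11 peak. A SOX11 peak in the gene's own promoter, meaning a centre at most 1 kb before or 100 bp after a transcription start, was found for 8 keratin genes, or 15.7% beside 23.1% of all genes. For SOX4 it was 1 gene, Krt42, or 1.96% beside 2.81%. The intervals of these shares hold the all-gene value in each case. For SOX11 the side on which the keratin genes stood depended on the settings, with 68.6% beside 65.5% when 25 kb around the gene was used, and 41.2% beside 35.3% with the first 10635 lines of the list. The keratin genes together had 36 different SOX11 peaks and 8 SOX4 peaks, and all 8 SOX4 peaks overlapped a SOX11 peak. Because the genes are close together, 10 of the 36 peaks were given to more than 1 keratin gene, and 15 of the 25 genes shared a peak with a neighbour, so that the genes are not independent observations.

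The sequences under the sites bound by both factors are printed first, since these are the sites where the lists of both factors meet. They are 7 of the 8 shared peaks, given with their SOX11 bounds and read from the plus strand of mm9, with capitals marking the SOX core (CATTGT or CTTTGT on either strand) and the AP-1 core (TGAGTCA or TGACTCA on either strand). The first, #15, was the earliest keratin peak in the SOX11 list and lay 17.2 kb upstream of Krt42, beyond the end of the type I cluster. #55 lay between the inner root sheath genes Krt74 and Krt72-ps (annotated as protein-coding despite its symbol), #129 between Krt6a and Krt5, #684 upstream of Krt19, #798 upstream of the hair gene Krt31, #2209 in the promoter of Krt42 and #3108 upstream of Krt75. The eighth, #22 at chr11:99091635-99091892, was at the start of Smarce1, which encodes a chromatin remodelling subunit, within 10 kb of Krt222, and 177 of its 258 bp are annotated untranslated region and are not printed.
#15, upstream of Krt42, chr11:100148256-100148513: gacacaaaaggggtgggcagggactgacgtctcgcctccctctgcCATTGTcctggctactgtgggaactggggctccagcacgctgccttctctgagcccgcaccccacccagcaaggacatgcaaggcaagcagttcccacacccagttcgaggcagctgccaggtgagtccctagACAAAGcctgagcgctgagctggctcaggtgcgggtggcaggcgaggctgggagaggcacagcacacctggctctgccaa
#55, between Krt74 and Krt72-ps, chr15:101600888-101601145: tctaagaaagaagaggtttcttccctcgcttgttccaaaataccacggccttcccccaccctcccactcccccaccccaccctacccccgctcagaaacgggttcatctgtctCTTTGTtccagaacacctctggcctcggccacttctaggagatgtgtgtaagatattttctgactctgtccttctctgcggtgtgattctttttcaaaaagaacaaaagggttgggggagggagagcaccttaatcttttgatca
#129, between Krt6a and Krt5, chr15:101527898-101528155: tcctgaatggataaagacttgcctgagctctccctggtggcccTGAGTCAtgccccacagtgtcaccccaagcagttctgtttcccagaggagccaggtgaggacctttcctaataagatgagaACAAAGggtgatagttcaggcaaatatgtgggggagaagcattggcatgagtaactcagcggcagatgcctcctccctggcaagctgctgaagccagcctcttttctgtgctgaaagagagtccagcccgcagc
#684, upstream of Krt19, chr11:100030309-100030566: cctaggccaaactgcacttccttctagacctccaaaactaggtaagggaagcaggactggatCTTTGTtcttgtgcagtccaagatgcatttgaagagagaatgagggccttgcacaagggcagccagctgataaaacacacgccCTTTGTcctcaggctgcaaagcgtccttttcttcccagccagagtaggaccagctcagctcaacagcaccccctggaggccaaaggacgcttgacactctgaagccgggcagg
#798, upstream of Krt31, chr11:99929029-99929286: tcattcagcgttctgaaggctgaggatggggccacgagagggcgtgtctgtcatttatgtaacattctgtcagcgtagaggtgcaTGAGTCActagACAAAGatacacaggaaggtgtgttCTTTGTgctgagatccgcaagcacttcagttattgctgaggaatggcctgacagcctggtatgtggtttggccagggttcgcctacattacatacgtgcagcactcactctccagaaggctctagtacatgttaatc
#2209, Krt42 promoter, chr11:100131302-100131559: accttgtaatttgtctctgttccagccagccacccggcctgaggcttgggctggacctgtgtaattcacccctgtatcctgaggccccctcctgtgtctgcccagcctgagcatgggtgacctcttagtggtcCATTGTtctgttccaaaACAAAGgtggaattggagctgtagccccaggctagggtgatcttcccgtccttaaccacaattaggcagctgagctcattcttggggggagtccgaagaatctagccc
#3108, upstream of Krt75, chr15:101414822-101415079: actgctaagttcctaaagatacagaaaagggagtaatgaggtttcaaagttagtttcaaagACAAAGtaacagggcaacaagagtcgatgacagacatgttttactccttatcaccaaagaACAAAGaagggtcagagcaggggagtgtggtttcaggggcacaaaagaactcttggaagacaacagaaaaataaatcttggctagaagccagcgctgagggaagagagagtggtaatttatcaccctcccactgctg

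A SOX core was present in 8 of 8 of these peaks, beside 83.6% of the 2522 shared peaks of the whole list. At least 2 SOX cores were present in 5 of the 8 (62.5%, interval 30.6% to 86.3%), beside 28.7% of all such peaks. The 5 were #15, #684, #798, #2209 and #3108. An AP-1 core, the site of the FOS and JUN family, was present in 2 of the 8, #129 and #798, and each of them held a SOX core as well. The median distance from the centre of the SOX11 peak to its nearest SOX core was 6.00 bp, and 10.0 bp over all shared peaks. The centres of the SOX11 and SOX4 peaks lay 1 bp apart at #22 and #55, 2 bp at #2209, 6 bp at #129, 20 bp at #798, 36 bp at #684, 42 bp at #15 and 66 bp at #3108.

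The remaining sequences are the SOX11 peaks in the promoters of keratin genes other than #2209 and that of Krt15, with the same capitals and strand. They are shown because they lie at the starts of keratin genes. The Krt14 and inner Krt7 peaks are printed without the bases that fall in an annotated untranslated region. The Krt7 gene had a pair of such peaks, #3720 at its outer start and #3598 at an annotated start inside the gene, and the Krt33a peak #6724 also lay at a start inside its gene.
#863, Krt14 promoter, chr11:100068863-100069110: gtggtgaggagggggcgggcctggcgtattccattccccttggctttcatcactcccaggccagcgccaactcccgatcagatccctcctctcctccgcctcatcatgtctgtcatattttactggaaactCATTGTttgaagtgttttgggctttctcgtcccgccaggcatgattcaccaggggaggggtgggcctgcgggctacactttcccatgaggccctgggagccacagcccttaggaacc
#5286, Krt17 promoter, chr11:100122362-100122619: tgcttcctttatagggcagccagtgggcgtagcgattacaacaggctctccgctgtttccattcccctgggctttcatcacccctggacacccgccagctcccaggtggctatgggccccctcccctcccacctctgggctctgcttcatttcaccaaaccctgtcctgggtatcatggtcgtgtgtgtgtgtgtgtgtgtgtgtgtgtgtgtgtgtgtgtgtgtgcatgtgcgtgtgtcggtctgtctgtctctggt
#8085, Krt16 promoter, chr11:100110426-100110683: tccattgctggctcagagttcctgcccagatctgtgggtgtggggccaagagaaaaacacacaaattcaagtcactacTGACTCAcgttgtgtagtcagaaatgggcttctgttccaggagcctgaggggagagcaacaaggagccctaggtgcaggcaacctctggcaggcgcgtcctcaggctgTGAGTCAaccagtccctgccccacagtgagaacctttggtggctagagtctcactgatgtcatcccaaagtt
#3720, Krt7 promoter, chr15:101241203-101241460: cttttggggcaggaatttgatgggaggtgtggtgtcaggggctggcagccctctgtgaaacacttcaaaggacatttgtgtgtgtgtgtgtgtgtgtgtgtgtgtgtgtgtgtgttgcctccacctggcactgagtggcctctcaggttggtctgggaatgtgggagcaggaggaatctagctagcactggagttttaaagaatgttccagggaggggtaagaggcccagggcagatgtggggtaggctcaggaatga
#3598, Krt7 inner promoter, chr15:101242628-101242832: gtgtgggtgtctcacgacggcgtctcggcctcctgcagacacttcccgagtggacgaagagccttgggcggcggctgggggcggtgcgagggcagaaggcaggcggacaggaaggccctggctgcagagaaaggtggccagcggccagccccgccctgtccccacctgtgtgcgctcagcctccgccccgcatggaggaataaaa
#6724, Krt33a inner promoter, chr11:99875197-99875454: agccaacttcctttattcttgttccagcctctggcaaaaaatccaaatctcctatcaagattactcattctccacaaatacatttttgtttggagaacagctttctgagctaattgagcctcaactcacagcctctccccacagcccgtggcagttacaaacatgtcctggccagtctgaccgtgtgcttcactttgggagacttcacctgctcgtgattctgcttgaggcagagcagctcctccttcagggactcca
#17164, Krt25 promoter, chr11:99185024-99185281: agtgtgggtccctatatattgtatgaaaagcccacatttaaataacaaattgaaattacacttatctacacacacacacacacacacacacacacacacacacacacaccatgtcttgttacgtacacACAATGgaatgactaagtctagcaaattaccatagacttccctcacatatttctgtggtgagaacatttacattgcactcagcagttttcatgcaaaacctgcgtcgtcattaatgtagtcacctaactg

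Of the 9 SOX11 peaks in keratin promoters, #2209 included, 3 held a SOX core, namely those of Krt14, Krt42 and Krt25. The Krt16 peak held 2 AP-1 cores and no SOX core, and 5 held neither. Over all 4951 SOX11 promoter peaks the shares were 38.1% with a SOX core, 6.28% with an AP-1 core and 58.8% with neither.

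The 3 keratins of the basal layer all had SOX11 peaks, which with so few genes gives an interval of 43.9% to 100% that holds the 57.0% of all genes. Krt14, whose product pairs with keratin 5, had a single peak, #863, with its centre 0.120 kb upstream of the start. Krt15, a basal and hair follicle keratin, likewise had #9262 at 0.229 kb upstream. Krt5 had no promoter peak. It shared #129 and #8353 with Krt6a, its neighbour, both lying beyond the 3′ end of Krt5, with the nearest 8.71 kb from its start. A SOX4 peak was given to Krt5 through #129 and to neither Krt14 nor Krt15 (33.3%, interval 6.15% to 79.2%, beside 13.0% of all genes). The median distance from the start of the 3 genes to the nearest SOX11 peak was 0.229 kb, with a range of 0.120 to 8.71 kb, beside 16.4 kb over all protein-coding genes. The medians of the wound-induced keratins (1.78 kb) and of those of simple epithelia (5.27 kb) were also under the all-gene value.

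Among the suprabasal and differentiation keratins 1 of 9, Krt13, had a SOX11 peak (11.1%, interval 1.99% to 43.5%, beside 57.0% of all genes). The group held Krt1, Krt2, Krt4, Krt9, Krt10, Krt13, Krt76, Krt77 and Krt78. A SOX4 peak was given to 0 of the 9, with an interval of 0% to 29.9% that holds the 13.0% of all genes. Neighbouring genes share stretches of DNA, which these intervals do not take into account. The Krt13 peak, #11516, lay 5.44 kb downstream of the nearest annotated Krt13 start, which is inside the gene. It was also within 10 kb of the hair gene Krt36. For Krt1, the type II keratin of the spinous layer, the nearest SOX11 peak was 80.2 kb from the start. For Krt10, its type I partner, it was 65.5 kb away, and for Krt2, a keratin of the upper layers, 47.6 kb. The distances of the 9 genes ran from 5.44 to 99.1 kb with a median of 56.2 kb. All 3 basal genes were nearer to a peak than Krt1, Krt2 and Krt10. Krt13, at 5.44 kb, was nearer than the basal gene Krt5 at 8.71 kb. With 25 kb around the gene in place of 10 kb, 2 of the 9 had a peak, while 65.5% of all genes did.

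Of the wound-induced keratins, Krt6a, Krt16 and Krt17 had SOX11 peaks and Krt6b had none, with an interval of 30.1% to 95.4% that holds the all-gene share. Krt17 had #5286 0.148 kb upstream of its start, and Krt16 had #8085 at 0.279 kb upstream, which was also within 10 kb of Krt17. Another peak within reach of Krt17, #2209, is the promoter peak of the next gene, Krt42, and was the source of its SOX4 call. At Krt6a the shared peak #129 lay 3.29 kb upstream of the start, at chr15:101527898-101528155, and #129 was line 129 in the SOX11 list and line 153 in the SOX4 list. The start of Krt6b was 17.3 kb from the same peak. Krt6a and Krt6b are close copies. Of the 50-base sequences in the Krt6b window, 89.0% occur once in mm9, the lowest value of the 51 genes, and 92.3% in the Krt6a window. Reads that match both copies could not be placed with confidence, and the part of this in the absence of a Krt6b peak was not tested.

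**Figure D1:**
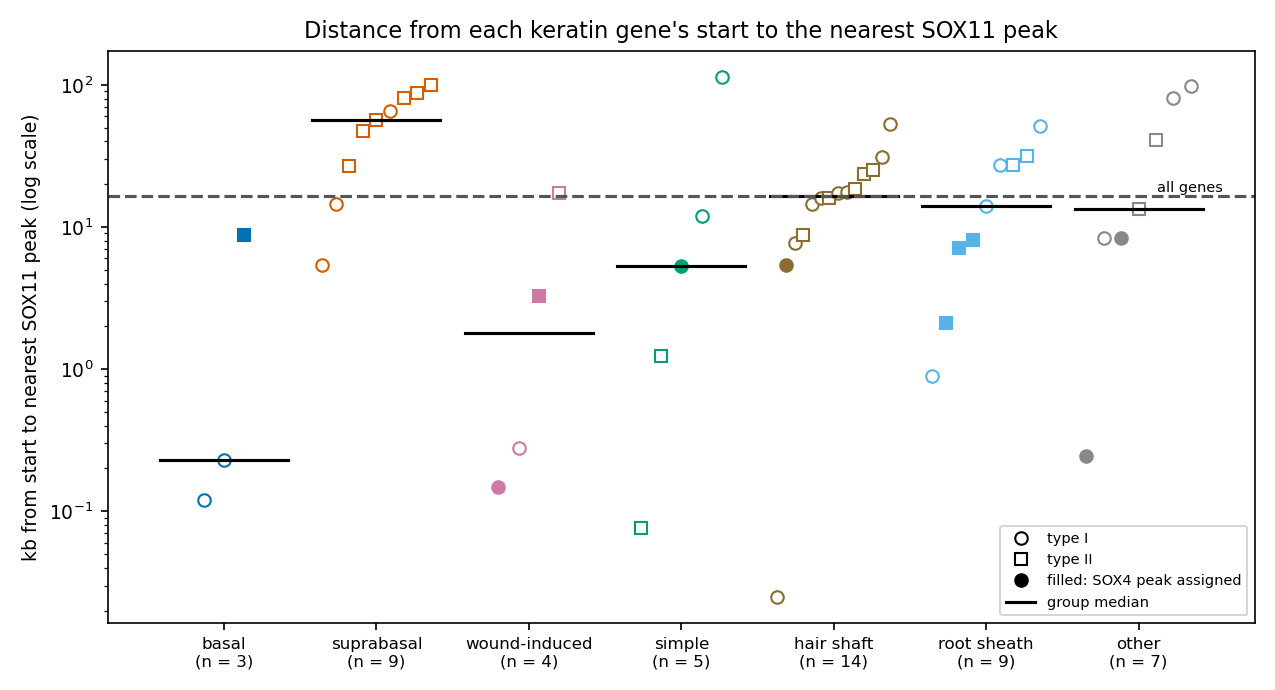
Distance in kb, on a log scale, from the start of each of the 51 keratin genes to the nearest SOX11 peak centre, by group, with circles for type I, squares for type II, filled symbols for genes that a SOX4 peak was given to and bars for group medians. The basal (0.229 kb), wound-induced (1.78 kb) and simple (5.27 kb) medians lie furthest under the dashed all-gene median (16.4 kb). The suprabasal median (56.2 kb) lies furthest above it.

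The keratins of simple epithelia, several of which embryonic surface ectoderm also makes, had SOX11 peaks at 4 of 5 genes, all but Krt20, with an interval of 37.6% to 96.4% that holds the 57.0% of all genes. Krt7 had #3720 and #3598 in its promoters. Krt8 had 3 peaks, #1603, #2344 and #8354, and the nearest was 1.24 kb upstream of the start. Its partner Krt18 had #8854, 17.6 kb downstream of the start of the gene and outside the 10 kb window, given to it by nearest start alone. Krt19, a type I keratin without a fixed partner, had #11157 at 5.27 kb and #684 at 20.5 kb upstream, and shared #9262 with Krt15. SOX4 was called for Krt19 through #684 and for no other simple keratin (20.0%, interval 3.62% to 62.4%, beside 13.0% of all genes).

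Among the keratins of hair, 5 of 14 hair shaft genes (35.7%, interval 16.3% to 61.2%) and 5 of 9 root sheath genes (55.6%, interval 26.7% to 81.1%) had a SOX11 peak, and both intervals hold the 57.0% of all genes. In the shaft group Krt31 had 3 peaks, of which #798 was shared with SOX4, and Krt33a, Krt33b, Krt36 and Krt81 had 1 each. In the root sheath group Krt75, a companion layer keratin, had 3, and Krt25, Krt26, Krt74 and Krt72-ps had 1 each. SOX4 was called for Krt31 in the shaft group (7.14%, interval 1.27% to 31.5%). In the root sheath group it was called for Krt75, Krt74 and Krt72-ps (33.3%, interval 12.1% to 64.6%). Both intervals hold the 13.0% of all genes, and Krt74 and Krt72-ps shared a single SOX4 peak. The median distances to a SOX11 peak, 16.6 kb in the shaft and 14.1 kb in the root sheath, were near the 16.4 kb of all genes. In the group of 7 other genes, 4 had a SOX11 peak (57.1%). Krt42, which follows Krt17 in the cluster, and Krt80, a type II gene at the cluster edge, had 4 SOX11 peaks each, the most of any keratin gene, Krt24 had 3 and Krt222 had #22. Krt42 had 2 SOX4 peaks and Krt80 none.

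By type, 16 of 28 type I genes (57.1%) and 9 of 23 type II genes (39.1%, interval 22.2% to 59.2%) had a SOX11 peak, beside 57.0% of all genes. SOX4 peaks were given to 5 genes of each type. These were 17.9% of type I (interval 7.88% to 35.6%) and 21.7% of type II (interval 9.66% to 41.9%). Both intervals hold the 13.0% of all genes. A SOX11 peak in the own promoter was found for 7 type I genes (25%, interval 12.7% to 43.4%), near the 23.1% of all genes, and for 1 type II gene, Krt7 (4.35%, interval 0.772% to 21.0%). The difference between the types was not tested. Among filament pairs, Krt14, Krt16 and Krt17 had SOX11 in the promoter and their usual type II partners Krt5, Krt6a and Krt6b did not, while neither gene of the pairs Krt8 and Krt18 or Krt1 and Krt10 had a promoter peak.

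**Figure D2:**
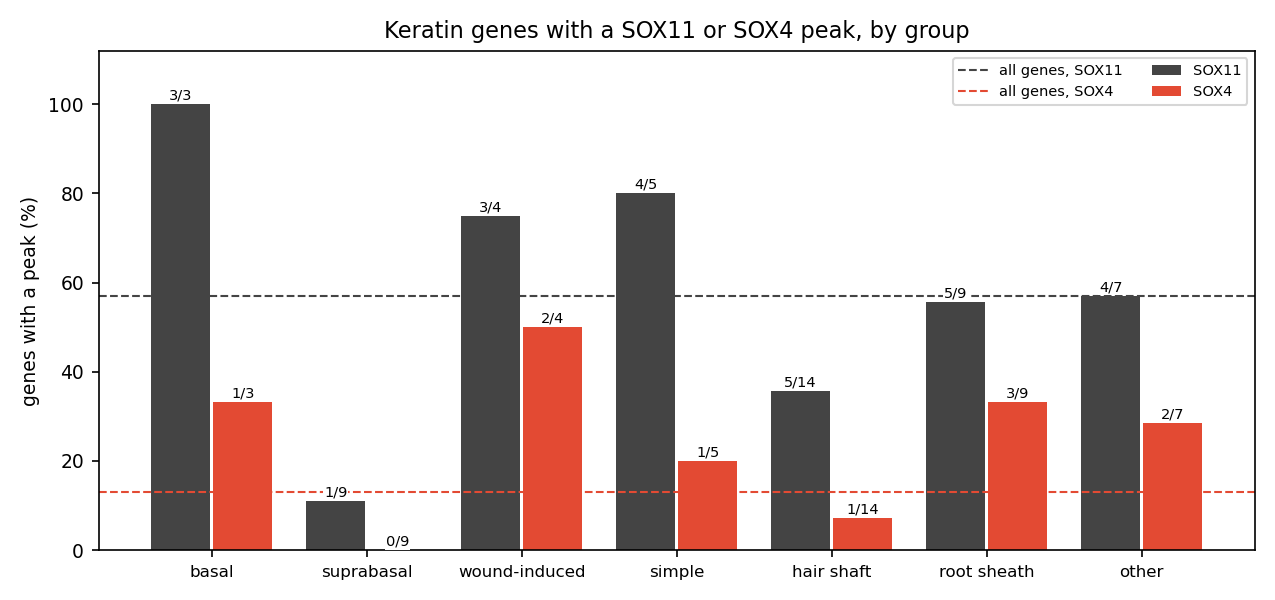
Percent of keratin genes in each group with a SOX11 (dark) or SOX4 (red) peak, with the number of genes above each bar and dashed lines for all protein-coding genes (57.0% and 13.0%). The basal group stands highest for SOX11 (3/3) and the suprabasal group lowest (1/9), and groups are small.

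Both clusters held more peaks per Mb than their chromosomes. The type I cluster, with 10 kb on each side, spans 1.06 Mb at chr11:99084075-100141185 and held 25 SOX11 peaks, or 23.6 per Mb, beside 12.3 per Mb over chromosome 11 and 8.06 over the genome. The type II cluster spans 0.705 Mb at chr15:101167875-101872457 and held 18, or 25.5 per Mb, beside 9.31 over chromosome 15. SOX4 peaks stood at 3.78 and 4.26 per Mb, beside 1.01 over the genome. Windows of the same length along the genome held a median of 6 SOX11 peaks for the type I length, with quartiles of 1 and 14, and of 4 for the type II length, with quartiles of 0 and 9. The 10 kb windows around all protein-coding genes held 11.9 SOX11 peaks per Mb, beside 8.06 over the genome. In the windows around keratin genes there were 23.0 SOX11 peaks per Mb, and 3.83 SOX4 peaks per Mb beside 1.5 in those of all genes. Whether gene density had a part in the cluster values was not tested. Keratin genes were short, with a median length of 6.99 kb beside 15.4 kb over all protein-coding genes. Of the 43 SOX11 peaks inside the clusters, 10 were given to no keratin gene.

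The peaks were uneven along both clusters. In the type I cluster a stretch of 251 kb, chr11:99185153-99435659, held no SOX11 or SOX4 peak between its bounding SOX11 peaks and covered 9 keratin genes, Krt26, Krt27, Krt28, Krt10, Krt12, Krt20, Krt23, Krt39 and Krt40. In the type II cluster a stretch of 210 kb, chr15:101601017-101811379, held none either and covered Krt72-ps, Krt73, Krt2, Krt1, Krt77, Krt76, Krt4, Krt79 and Krt78. These stretches were picked as the longest between SOX11 peaks in each cluster, so that genes well inside them lack a peak by construction. They contained 18 keratin genes, 16 of the 26 genes without a SOX11 peak and 7 of the 9 suprabasal genes, and 0 basal or wound-induced genes. Of the suprabasal genes, Krt10 lay in the first stretch and the others close together in the second, so that they are not independent observations. Gaps of this size occur elsewhere in the genome. Of 21250 gaps between neighbouring SOX11 peaks, 8.75% were at least as long as the first and 10.6% as long as the second, and the median gap was 37.1 kb. The genome as a whole held 8.06 peaks per Mb, beside 23.6 and 25.5 in the clusters, and gaps at cluster density were not counted. Of the 50-base sequences in the first and second stretch, 97% and 97.1% occur once in mm9, above the 91.8% and 94.3% of the whole clusters. SOX cores stood at 1.51 per kb in the first stretch and 1.52 in the whole type I cluster, and at 1.30 and 1.41 in the second stretch and the type II cluster. Krt6b and Krt6a lay in the next longest stretch of the type II cluster, 98.2 kb with 81.7% of 50-base sequences occurring once.

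**Figure D3:**
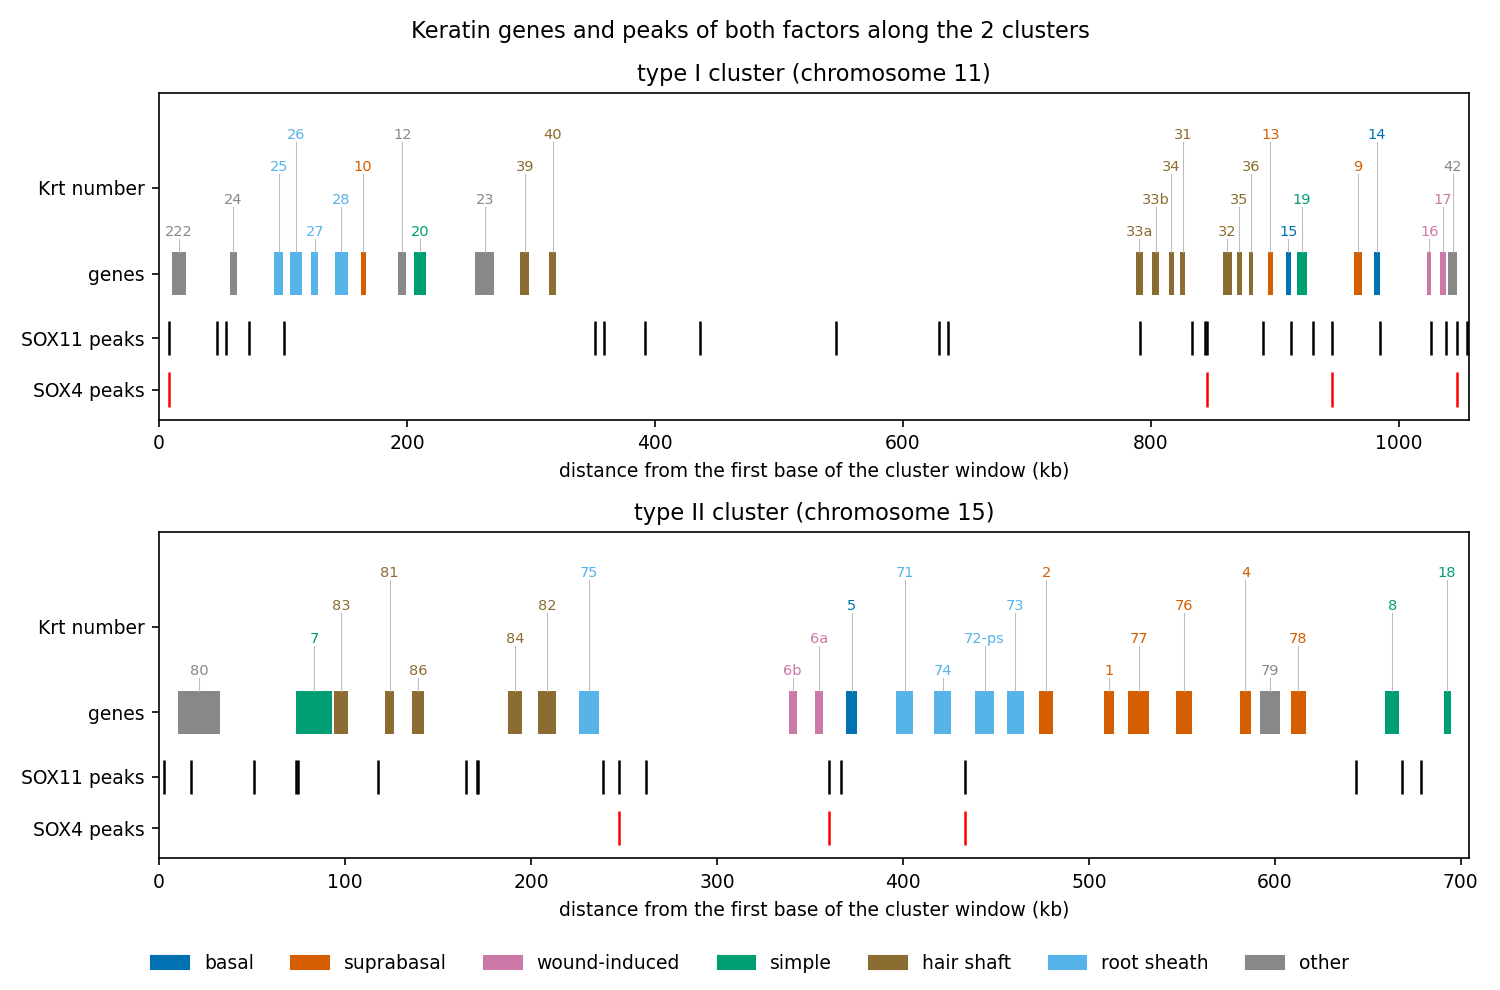
Maps of both clusters, with the distance in kb from the first base on the x axis, genes as boxes coloured by group and labelled with the Krt number, and SOX11 (black) and SOX4 (red) peaks as ticks. Peak-free stretches of 251 kb in the type I cluster and 210 kb in the type II cluster cover Krt10 and its neighbours and Krt1 and Krt2 and theirs.

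Most keratin peaks were outside gene bodies. Among the 36 under SOX11, 25 were intergenic (69.4%, with an interval of 53.1% to 82.0%), 10 (27.8%) were in a promoter, 1 (2.78%) was in an intron, that of Krt80, and 0 were in an exon. Over the whole list 40.0% were intergenic, 23.3% in a promoter, 33.4% in an intron and 3.33% in an exon. The promoter peaks #3598 and #6724 lay inside their genes and were counted as promoter only. Keratin genes had a median length of 6.99 kb, beside 15.4 kb over all genes, and peaks were given to them through 10 kb flanks or the nearest start. The part of gene length and of this rule in the shares was not tested. A SOX core was present in 22 of the 36 (61.1%, interval 44.9% to 75.2%), beside 58.5% of the whole list and 32.2% of sequences of the same length 2 kb downstream of all peaks. In the sequences 2 kb downstream of the 36 themselves it was 36.1% (interval 22.5% to 52.4%), and these intervals overlap. An AP-1 core was present in 13 (36.1%, interval 22.5% to 52.4%), beside 28.5% of the list. Downstream sequences held it in 4.59% over all peaks and 8.33% (interval 2.87% to 21.8%) for the 36. Within 50 bp of the centre the share was 13.9%, beside 14.9% of the list. Both cores were present in 6, and neither in 7. The 7 peaks with an AP-1 core alone were #2344 and #8354 at Krt8, #8854 at Krt18, #8085 at Krt16, #9261 at Krt31, #16491 at Krt24 and #5594 at Krt80. The core GGAATG of TEAD factors was present in 9 of the 36 (25%), beside 22.8% of the list.

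Of the 36 peaks, 8 (22.2%, interval 11.7% to 38.1%) overlapped a SOX4 peak, beside 11.9% of the whole SOX11 list, a value just inside the interval. The 8 shared peaks had a median line number of 406.5 with a range of 15 to 3108, and the 28 peaks without SOX4 a median of 7404.5 with a range of 863 to 18894. The whole list showed the same order, with medians of 1971.5 for peaks shared with SOX4 and 11652 for the others. Over all 36 the median was 4587, beside 10636 for the list, and 28 of the 36 fell in its first 10635 lines. The earliest unshared keratin peak was the Krt14 promoter peak, #863.

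**Figure D4:**
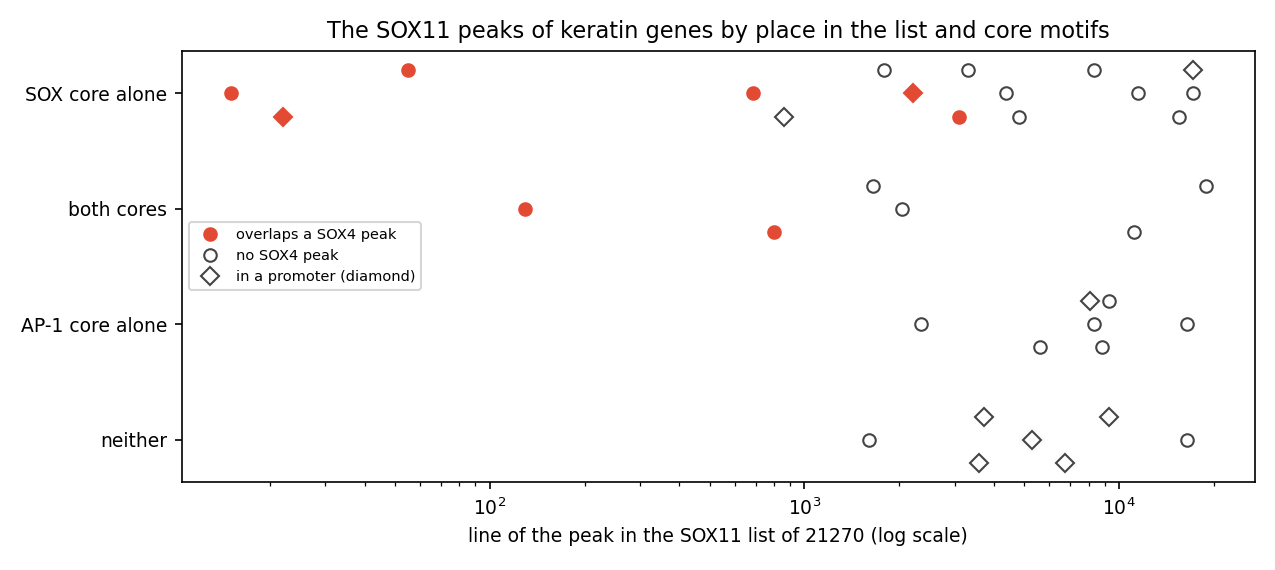
Line number in the SOX11 list (log scale) of the 36 peaks of keratin genes, in rows by the cores they hold, with red symbols for peaks that overlap a SOX4 peak and diamonds for promoter peaks. The 8 shared peaks lie between lines 15 and 3108 and all hold a SOX core, and 5 promoter peaks hold neither core.

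Other intermediate filament genes, and genes for proteins that link or bundle keratin filaments, were counted in the same way. Of 18 other intermediate filament genes 12 had a SOX11 peak (66.7%, interval 43.7% to 83.7%) and 1 a SOX4 peak (5.56%, interval 0.988% to 25.8%), and both intervals hold the all-gene shares of 57.0% and 13.0%. Most peaks were at Iffo2 with 8, followed by Bfsp2, Lmna and Nefl with 5 each, the last 3 encoding a lens filament protein, the lamins A and C and the light neurofilament. Of 9 genes for proteins that link or bundle keratin filaments, 8 had a SOX11 peak (88.9%, interval 56.5% to 98.0%, beside 57.0% of all genes) and 3 a SOX4 peak (33.3%, interval 12.1% to 64.6%, beside 13.0%). Both intervals just hold the all-gene shares. Dst, the cytolinker of the hemidesmosome, had 8, Dsp and Pkp1, both of the desmosome, 6 each, and Fam83h 3. The median length of these linker genes was 46.2 kb, beside 6.99 kb for the keratins and 15.4 kb over all protein-coding genes.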

How the data were processed

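SOX11 and SOX4 peaks were deposited by the authors as lists of coordinates with no score, 1 list per factor over both replicates. Per the methods of the study, single-end 50-bp reads were mapped to mm9 with Bowtie2, reads of low quality or outside the nuclear genome were dropped, Picard MarkDuplicates took out duplicates, HOMER findPeaks called peaks in its factor style, and bedtools subtracted the mm9 blacklist. Versions are not given in the sources used here. Each deposited line holds a chromosome, a start and an end, with starts counted from 0, and no count or signal. Depth is unknown from the lists.

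Keratin genes, their starts and untranslated regions were taken from GENCODE M1 on mm9 (NCBIM37). Of 54 keratin symbols sorted into groups, 50 were matched, and Krt72-ps was added by the rule. Of 10 linker symbols 9 were matched, and Flg, annotated as several genes under that symbol, counted once. Overlap required 1 bp between a SOX11 and a SOX4 peak. A peak was in a promoter when its centre lay at most 1 kb before or 100 bp after a start. Where a gene has several annotated starts, distances were taken from the start nearest to the peak. The sequence of the Krt15 promoter peak is not reported here. Exact cores were searched over whole peaks on both strands. 50-base sequences were matched exactly against both strands of mm9. Shares carry 95% Wilson intervals. Named were the keratin genes with a SOX4 peak or a peak in their own promoter, those with most SOX11 peaks and the classical epidermal and simple keratins. Other keratin genes that are named were chosen after their values were seen. The members and lists were chosen with earlier results of these data known. No replicate spread could be had, and no test was made. Assignment, overlap, placement and core search were tested on simulated data. Python 3.11.15, numpy 2.4.6, scipy 1.17.1, pysam 0.24.0 and samtools 1.23.1 were used.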

Additional observations from a re-analysis of the deposited data

How the results depend on the processing

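No paired analysis was possible because the deposited lists do not separate the replicates. Over 18 results and 116 alternatives, 68 of them chosen after seeing the data, 91 values stayed within 1.5 times the count, or within the interval of the share, and 25 moved. With as many SOX11 peaks as SOX4 peaks (the first 2669 lines), keratin genes with a SOX11 peak fell to 12 (23.5%, beside 12.0% of all genes), their peaks to 13, type I genes to 6, suprabasal to 0, simple to 2, hair shaft to 1 and root sheath to 2, and the densities to 5.68 per Mb in the type I and 8.52 in the type II cluster, beside 1.01 over the genome. With the first 10635 lines, suprabasal genes stood at 0, root sheath at 3 and the type I density at 15.1 per Mb, and 41.2% of keratin genes had a peak beside 35.3% of all genes. With 25 kb around the gene, the counts with SOX11 were 14 of 23 for type II, 2 of 9 for suprabasal and 11 of 14 for hair shaft. SOX4 peaks were given to 16 keratin genes, 31.4% beside 16.7% of all genes. For SOX11, keratin genes stood at 68.6% beside 65.5% of all genes. The side of the all-gene share on which keratin genes stood for SOX11 thus depended on these settings. With 5 kb, hair shaft genes with SOX11 were 3. With the gene body and nearest start, and likewise with the nearest start alone, SOX4 genes were 6, hair shaft genes 2 and root sheath genes 3, and SOX4 genes stood at 11.8% beside 10.7% and 10.1% of all genes. With the window alone, SOX4 peaks were 4. Within 50 bp to each side of the centre, 13.9% of keratin peaks held an AP-1 core, beside 14.9% of the list. Basal genes stood at 3 of 3 under all but the shortest list, which left 2, and wound-induced genes at 2 there and at 3 or 4 under the others. Krt6b gained a peak only with 25 kb. Causes were not tested.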

Other observations

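The Krtap genes encode the keratin-associated proteins that embed hair keratins, and a block of them lies inside the type I cluster. Of 46 Krtap genes 8 had a SOX11 peak, 17.4% beside 57.0% of all genes, and 0 had a SOX4 peak, beside 13.0% of all genes. Those inside the type I cluster on chromosome 11 numbered 22, of which 7 had a SOX11 peak. Krtap1-4, Krtap1-5 and Krtap4-16 had 2 peaks each. Of 19 on chromosome 16, 0 had one, and the nearest SOX11 peaks lay 265 to 1020 kb from their starts. Krtap genes were short, with a median length of 0.855 kb.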
